A study of Mus musculus with 18 samples.

Results

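The 7 genes C3, C4b, C2, C1ra, Cfb, Cfd and Serping1 encode components and a soluble regulator of the complement system that connective tissue cells can make. They were taken by gene symbol from a table of 55486 genes, each matching 1 row. Polyadenylated RNA was sequenced from normal fibroblasts (NFs) of the mammary gland of female FVB/n mice, 8 to 16 weeks old when the cells were isolated. The cells had been sorted as negative for EpCAM, CD49f, CD45 and CD31, split by CD26, a surface peptidase encoded by Dpp4, and grown in culture. Each cell type was kept for 7 days in control conditioned medium (CD26- control, n = 3; CD26+ control, n = 3) or in conditioned medium (CM) of tumour cell lines (CD26- CM, n = 6; CD26+ CM, n = 6).

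The 6 tumour lines came from WEPtn mice, a model of invasive lobular carcinoma in which WapCre drives gene deletion in the mammary epithelium. Each of the 6 lines gave the CM of 1 library per cell type, so that any effect of the line adds to the spread among CM libraries. Cells of 4 to 6 mice were pooled per sort and cultures were used up to passage 6. The labels do not say whether the libraries of a group came from separate cultures, and p-values then measure only the spread between these libraries. The study's reporting summary gives the donors of the NFs as mice without WapCre that carried floxed alleles, or as mTmG reporter mice, both FVB/n. The labels do not say which of these gave which library, so the donor genotype could not be compared between groups. None of the groups holds whole tissue or other stromal cells by design.

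Complement is a cascade of serum and tissue proteins that tags targets and attracts leukocytes. In the classical pathway the proteases C1r and C1s cut C4 and C2, whose fragments form the enzyme that cleaves C3; in the alternative pathway factor D cuts factor B on C3b, which builds a second enzyme with the same target. C1 inhibitor, the product of Serping1, binds and inactivates C1r and C1s. The liver makes most of the plasma proteins, while fibroblasts are a known local source of several of them, and factor D, also called adipsin, is a product of fat cells.

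Library totals ran from 9725723 to 14585349 counts. Values are CPM, a gene's reads scaled to a common library total after TMM normalization. FDR is the p of edgeR's quasi-likelihood test after Benjamini-Hochberg adjustment over the 14273 genes tested, and a gene was called when it was under 0.05. Fibroblast markers were present in all libraries: the summed level of 9 marker genes was 9813 to 21490 CPM in the CD26- libraries and 29190 to 79500 CPM in the CD26+ libraries. Dpp4, which the sort used, had 0 to 2 counts in the CD26- control and 0 to 1 count in the CD26+ control libraries, so the CD26 labels could not be checked from it in control medium. It had 1 to 11 counts in CD26- CM and 8 to 104 counts in CD26+ CM. The summed level of 7 epithelial markers, Epcam and keratins among them, was 2561 to 4489 CPM in the CD26- and 600 to 1451 CPM in the CD26+ libraries, although EpCAM-positive cells had been sorted away. Ptprc and Adgre1, which mark leukocytes and macrophages, stayed at 3 counts or fewer in every library, but the summed level of the 10 immune markers was 24.9 to 55.5 CPM, with Csf1r at 11.0 to 26.8 CPM and Cd14 at 5.79 to 29.1 CPM. Hepatocyte markers (Alb, Apoa1 and Ttr) summed to at most 0.238 CPM. The 8 adipocyte markers summed to 175 to 1770 CPM. Most of this was Lpl, at 142 to 1701 CPM, and Fabp4 stood at 14.1 to 73.4 CPM. Of the defining fat cell genes, Adipoq reached at most 2.43 CPM, Plin1 13.5 CPM and Lep 1 count.

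Of the 7 genes, 5 passed the filter on low counts and were tested. C2 passed only through the CD26+ libraries, where it is higher: with 3 to 9 counts in every CD26- library it did not pass in fits of the 2 CD26- groups alone or of the 2 CM groups alone. Its differences between the cell types are therefore given as a description. Cfb and Cfd did not, with 59 and 17 reads in all 18 libraries together, and are given as counts. Levels compared between genes are per kilobase of annotated exon. In CD26+ control, mean levels per kilobase were 246 CPM for Serping1, 22.5 CPM for C4b, 14.1 CPM for C3, 12.5 CPM for C1ra, 0.550 CPM for C2, 0.390 CPM for Cfd and 0.0446 CPM for Cfb. In CD26+ CM, Serping1 was followed by C3 at 209 CPM, C1ra at 31.4 CPM, C4b at 26.0 CPM, C2 at 0.354 CPM and Cfb at 0.241 CPM. In CD26- control they were 89.6 CPM for Serping1, 15.8 CPM for C3, 1.96 CPM for C1ra, 0.545 CPM for C4b and 0.112 CPM for C2. The inhibitor stood above the components in these 3 groups, and Cfb, Cfd and C2 stood last.

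**Figure D1:**
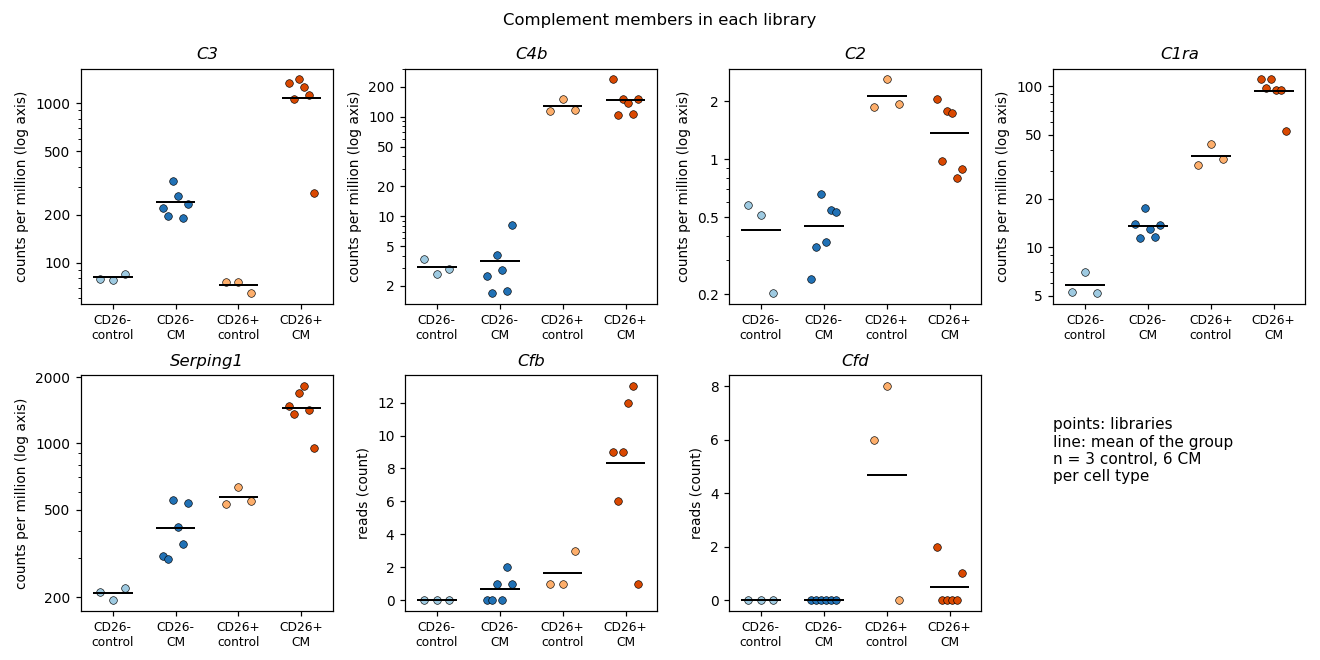
Level of each of the 7 genes in the 18 libraries, in CPM on a log axis for the 5 tested genes and in reads on a linear axis for Cfb and Cfd; points are libraries and horizontal lines are group means (n = 3 control and 6 CM per cell type). C3 lay at 64.8 to 85.6 CPM in both controls and at 1066 to 1409 CPM in 5 of the 6 CD26+ CM libraries, with the sixth at 273 CPM.

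Tumour CM was compared with control medium within each cell type. In CD26- NFs, 3 of the 5 tested genes rose (C3, C1ra and Serping1) and 0 fell, where 7.88% of all tested genes rose and 7.28% fell. In CD26+ NFs the same 3 genes rose and 0 fell, against 15.2% and 13.4% of all genes. The median log2 fold change over the 5 genes was 0.98 in CD26- and 1.34 in CD26+ NFs, where the median over all genes was 0.005 and -0.004. By the study's added limit of a log2 fold change over 2, which 0.764% of all genes passed in CD26- and 1.6% in CD26+ NFs, 0 and 1 of the 5 genes counted, the 1 being C3. By unadjusted p under 0.05, 3 of the 5 genes passed in CD26- NFs and 4 in CD26+ NFs, and DESeq2 called 3 in each.

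Markers moved with CM too. The mean summed level of fibroblast markers went from 71240 CPM in control to 39290 CPM in CM in CD26+ NFs, where the libraries did not overlap (62520 to 79500 CPM against 29190 to 52130 CPM), and from 17320 to 14500 CPM in CD26- NFs, where they did. Col1a1, Col1a2 and Col3a1 made up most of these sums. In CD26+ NFs the mean of Col1a1 went from 26730 to 14690 CPM, while other markers of the list stood higher in CM without overlap, with Dcn at 366 to 436 CPM in control and 1378 to 4408 CPM in CM, Pdgfra at 404 to 471 CPM and 613 to 1141 CPM, and Pdgfrb at 667 to 784 CPM and 791 to 863 CPM. That of adipocyte markers went from 763 to 1406 CPM in CD26+ and from 189 to 334 CPM in CD26- NFs, and that of epithelial markers from 930 to 898 CPM and from 4317 to 3259 CPM. The immune markers had 24.9 to 30.0 CPM in CD26+ control and 31.8 to 44.6 CPM in CD26+ CM, without overlap, and means of 43.0 and 44.0 CPM in CD26- control and CM. The part of the fibroblast, adipocyte and immune markers in the CM effects was not tested. With the epithelial marker level as a covariate C3, C1ra and Serping1 were still called for CM, with FDR values of 0.0188, 0.0132 and 0.0140 in CD26- NFs and 3.82e-06, 9.61e-05 and 2.10e-04 in CD26+ NFs.

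C3 is the central component, cleaved by the enzymes of every pathway. Its level was 79.6, 78.6 and 85.6 CPM in the CD26- control libraries and ran from 192 to 328 CPM, with a median of 228 CPM, in the 6 CD26- CM libraries. The groups did not overlap, and the fold was 2.94 (log2 1.56, SE 0.34, FDR 0.00621). In the CD26+ control libraries C3 stood at 76.1, 76.0 and 64.8 CPM, and in CD26+ CM it ran from 273 to 1409 CPM with a median of 1191 CPM. This was a 14.9-fold rise (log2 3.90, SE 0.39, FDR 2.25e-06), again without overlap. The CM libraries were uneven: 5 stood at 14.7 to 19.5 times the control mean and that of line 13-MCB-138 at 3.77 times.

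The gene lies on the minus strand at chr17:57203970-57228136 (GRCm38). Because C3 moved most of the 7 genes, the 150 bases before its annotated start are shown, from the RefSeq table of promoters of GRCm38.p6, at chr17:57228137-57228286, minus strand. Capitals mark the match to the C/EBP half-site pair.
C3 upstream: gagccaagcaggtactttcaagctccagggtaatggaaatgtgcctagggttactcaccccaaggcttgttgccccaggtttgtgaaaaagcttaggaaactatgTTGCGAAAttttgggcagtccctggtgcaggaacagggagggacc
The match TTGCGAAA spans bases -45 to -38 from the start. The letters searched, on both strands, were TTGCNNAA for C/EBP, TTCNNNGAA for STAT, GAAANNGAA for IRF, TATAAA for the TATA box, and the NF-kB consensus of 10 bases. Of the 32851 windows in the table, which span 250 bases before to 50 after a start, 10.8% hold the C/EBP letters, 8.3% the STAT, 8.56% the IRF, 13.6% the TATA and 8.46% the NF-kB letters. Windows were found for C3, C1ra and Cfd. Those of C3 and C1ra hold the C/EBP letters, that of C1ra the STAT letters and that of C3 TATAAA at bases 15 to 20. None of the 3 windows holds the NF-kB or IRF letters, which says only that these letters are not in these windows, and a match is a description of the sequence.

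C1ra encodes the protease C1r, which activates C1s once C1q has bound. It was at 5.32, 7.00 and 5.21 CPM in CD26- control and at 11.5 to 17.5 CPM (median 13.4 CPM) in CD26- CM, with no overlap. The fold was 2.33 (log2 1.22, SE 0.23, FDR 0.00273). In CD26+ NFs the controls had 32.3, 43.6 and 35.5 CPM and the CM libraries 52.7 to 111 CPM (median 96.9 CPM), a 2.52-fold rise (log2 1.34, SE 0.19, FDR 5.94e-05). The groups were again apart, and the lowest CM library was that of line 13-MCB-138.

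C1ra, at chr6:124512405-124523443 on the plus strand, has a close copy, C1rb, at chr6:124570294-124581171. Of the 65-base windows of its longest coding transcript, the length of the sequenced read, 45.4% also occur in transcripts of another gene, mostly C1rb. A stretch of exon 11 in both copies shows how a read can still be assigned (chr6:124522252-124522316 and chr6:124580301-124580365, GRCm38, plus strand), with the 4 differing bases in capitals.
C1ra: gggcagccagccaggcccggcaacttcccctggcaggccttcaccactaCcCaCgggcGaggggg
C1rb: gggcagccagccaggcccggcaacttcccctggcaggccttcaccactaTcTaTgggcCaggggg
C1rb took 8.46% to 9.93% of the reads of both genes in the 4 groups, and its own log2 fold changes were 1.37 in CD26- NFs (SE 0.45, FDR 0.0474) and 1.48 in CD26+ NFs (SE 0.27, FDR 6.46e-04). The call of C1rb in CD26- NFs was kept in 4 of the 18 fits that each leave out 1 library, with FDR values up to 0.147. With the reads of the copies summed, all calls of C1ra held. The copies also share 25 bases with a C/EBP and a STAT match near their starts, at bases 17 to 41 for C1ra (chr6:124512637-124512661) and at bases -135 to -111 for C1rb (chr6:124570295-124570319), both plus strand. These bases are counted from the RefSeq starts of the promoter table, which lie inside the GENCODE spans given above, so that both stretches fall within those spans. Capitals mark the C/EBP letters, read on the opposite strand, and the STAT letters.
C1ra: TTATGCAAatgcttcaTTCCCTGAA
C1rb: TTATGCAAatgcttcaTTCCCTGAA

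Serping1 encodes C1 inhibitor and lies at chr2:84765387-84775444 on the minus strand. The CD26- control libraries had 211, 194 and 219 CPM and the CD26- CM libraries 299 to 554 CPM (median 384 CPM). All 6 CM libraries were above the controls, a 1.97-fold rise (log2 0.98, SE 0.21, FDR 0.00494). CD26+ control libraries had 529, 637 and 548 CPM against 949 to 1819 CPM in CM (median 1447 CPM). The 2.54-fold rise (log2 1.35, SE 0.21, FDR 1.57e-04) was also without overlap, and again the lowest CM library was that of line 13-MCB-138. The inhibitor of C1r thus rose in the same 2 comparisons as the C1ra transcript.

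C4b encodes complement C4, the substrate of C1s, and lies at chr17:34728380-34743882 on the minus strand. In CD26- NFs it had 3.68, 2.65 and 2.98 CPM in control and 1.68 to 8.22 CPM (median 2.67 CPM) in CM. CD26+ NFs had 116, 152 and 117 CPM in control and 104 to 239 CPM (median 144 CPM) in CM. Both pairs of groups overlapped. The CM difference was 0.16 on the log2 scale in CD26- NFs (95% interval -0.79 to 1.10, FDR 0.862) and 0.21 in CD26+ NFs (95% interval -0.32 to 0.74, FDR 0.606). In CD26- NFs its sign rested on the library of line 13-MCB-138, at 8.22 CPM, and without it the difference was -0.25.

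C4b also has a copy, C4a, which encodes the sex-limited protein, at chr17:34809092-34823464. Of the 65-base windows of C4b, 27.5% also occur in C4a. A stretch of exon 11 in both (chr17:34740321-34740385 and chr17:34819840-34819904, GRCm38, minus strand) has 5 differing bases, shown in capitals.
C4b: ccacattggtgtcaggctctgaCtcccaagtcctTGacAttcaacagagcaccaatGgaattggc
C4a: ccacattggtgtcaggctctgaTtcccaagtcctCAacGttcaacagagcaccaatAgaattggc
C4a took 2.35% and 2.26% of the reads of both genes in CD26+ control and CM, and 13.3% and 12.5% in CD26- control and CM, where few reads fell on either.

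C2 supplies the protease part of the classical C3-cleaving enzyme and lies next to Cfb, at chr17:34862604-34898265 on the minus strand. It was low: 3 to 9 counts in every CD26- library, 23 to 35 counts in CD26+ control and 9 to 27 counts in CD26+ CM. In CPM, the CD26+ control libraries had 1.86, 2.59 and 1.93 and the CM libraries 0.799 to 2.05 (median 1.36), with overlap. The CM difference was -0.62 on the log2 scale in CD26+ NFs (SE 0.29, FDR 0.117) and 0.12 in CD26- NFs (SE 0.46, FDR 0.895), so neither passed. The interval in CD26+ NFs, -1.19 to -0.06, lay below 0 before adjustment over all genes.

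Cfb encodes factor B, the protease part of the alternative pathway enzyme, and lies at chr17:34856374-34862518 on the minus strand. Its reads numbered 0, 0 and 0 in CD26- control, 0, 0, 1, 0, 2 and 1 in CD26- CM, and 1, 1 and 3 in CD26+ control. The CD26+ CM libraries had 9, 6, 9, 12, 13 and 1 reads, the last again from line 13-MCB-138. The ratio of pooled reads per depth between CM and control in CD26+ NFs was 5.36 (95% interval 2.15 to 17.2, exact and for counting error only). A fit without the filter on low counts gave a log2 difference of 2.34 (FDR 0.0251) in CD26+ NFs and, between the cell types in CM, 3.51 (FDR 1.05e-04). Counts of Cfb and C2 carry a limit from the annotation: a read-through gene, Gm20547, on the same strand covers 79.5% of the exon bases of Cfb and 42.8% of those of C2, and it had 0 reads in all 18 libraries. Reads within the shared exons may have been left uncounted as ambiguous, and the part of this in the low levels was not tested.

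Cfd encodes factor D, which activates factor B, and lies at chr10:79890853-79892655. It had 0 reads in all 9 CD26- libraries, where 3 reads, the limit that a count of 0 allows, equal 0.203 to 0.290 CPM. CD26+ control libraries had 6, 8 and 0 reads and CD26+ CM libraries 2, 0, 0, 0, 0 and 1 reads. The ratio of CM to control in CD26+ NFs was 0.115 (95% interval 0.0212 to 0.411, counting error only), and the fit without a filter gave an FDR of 0.0632. Adipoq, 1 of the 8 adipocyte markers, had 30, 29 and 9 reads in CD26+ control and 25, 0, 1, 0, 0 and 8 reads in CD26+ CM, so that the 4 CM libraries without a Cfd read had at most 1 read of Adipoq. Cidec, another fat cell gene, had 0 reads in the CD26- libraries, 3 to 10 in CD26+ control and 0 to 4 in CD26+ CM. The summed level of the list, mostly Lpl, did not go with Cfd and was 733 to 805 CPM in CD26+ control and 1210 to 1770 CPM in CM. For CM in CD26+ NFs Lpl rose by 0.92 (FDR 0.00941) and Fabp4 by 0.72 (FDR 0.0334), Pparg fell by 0.51 (FDR 0.0147), and Plin1 and Adipoq did not pass, at 0.60 (FDR 0.414) and -1.90 (FDR 0.0663) on the log2 scale. The part of fat cell genes in the Cfd counts was not tested.

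**Figure D2:**
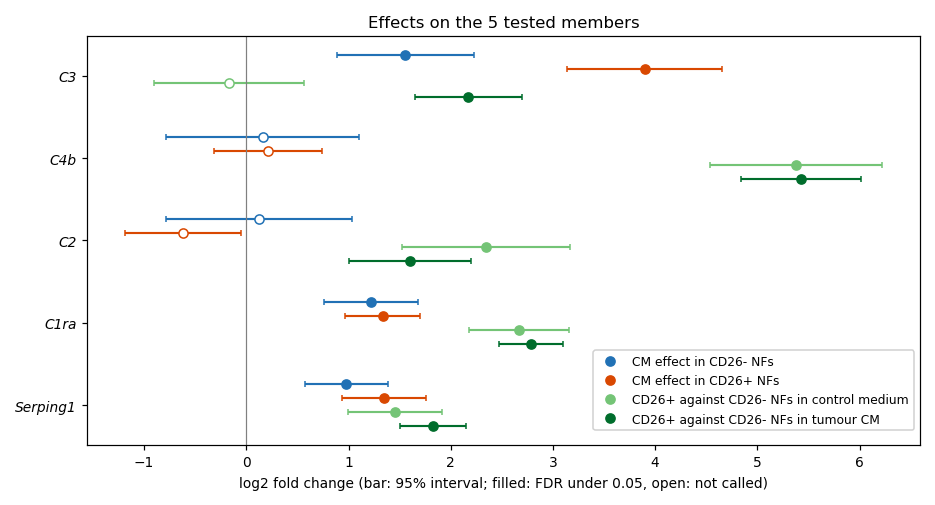
Log2 fold changes of the 5 tested genes in 4 comparisons, with 95% intervals; filled points passed an FDR under 0.05 and open points did not. The CM effects of C3 stand apart (1.56 and 3.90), and those of C1ra and Serping1 lie between 0.98 and 1.35. C4b shows its difference between the cell types in either medium (5.38 and 5.43). The points of C2 between the cell types are a description, as its filter was passed through the CD26+ libraries.

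The cell types were compared in each medium. Leaving C2 aside, 3 of the other 4 tested genes were higher in CD26+ NFs in control medium (C4b, C1ra and Serping1) and 0 were lower, where 25.0% of all genes were higher and 25.4% lower. In tumour CM all 4 were higher and 0 lower, against 29.3% and 29.3% of all genes. Past a log2 fold change of 2, which 1.96% of all genes passed in control medium and 1.48% in CM, stood C4b and C1ra in either medium and C3 in CM. C2 was also called as higher in both media, but its filter was passed through the group where it is high. Such bulk libraries cannot tell fewer cells of a type from less RNA per cell.

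C4b differed most. Its level was 41.5-fold higher in CD26+ control than in CD26- control (log2 5.38, SE 0.43, FDR 4.55e-08) and 43.1-fold higher in CM (log2 5.43, SE 0.30, FDR 3.66e-10). The lowest of the 9 CD26+ libraries, at 104 CPM, lay far above the highest of the 9 CD26- libraries, at 8.22 CPM. As a description, the copy C4a lay in the same direction, by 2.86 in control medium and 2.96 in CM on the log2 scale. It had 2 to 10 counts in the CD26- libraries. Its low-count filter was passed through the CD26+ libraries, where it is high, at 26 to 81 counts. The 6 other tested genes between C4b and C2 on chromosome 17 and beside them differed by -0.16 to 0.83 in the same 2 comparisons.

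C1ra was 6.36-fold higher in CD26+ NFs in control medium (log2 2.67, SE 0.25, FDR 2.13e-07) and 6.90-fold higher in CM (log2 2.79, SE 0.16, FDR 4.90e-10). Serping1 was 2.74-fold (log2 1.46, SE 0.23, FDR 5.32e-05) and 3.54-fold higher (log2 1.82, SE 0.17, FDR 6.51e-08). For both genes the cell types did not overlap in either medium, and the CD26+ control libraries of C1ra, at 32.3 to 43.6 CPM, also lay above every CD26- CM library. As a description, C2 lay 5.07-fold higher in CD26+ NFs in control medium (log2 2.34) and 3.03-fold higher in CM (log2 1.60). Its low-count filter was passed through the CD26+ libraries, where it is high. The difference in CM was not called with the epithelial marker level as a covariate (FDR 0.0571).

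C3 was not called as higher in CD26+ NFs in control medium. The log2 difference was -0.17 (SE 0.37, 95% interval -0.90 to 0.56, FDR 0.736), although the 3 CD26+ libraries (64.8 to 76.1 CPM) lay just under the 3 CD26- libraries (78.6 to 85.6 CPM). In a fit of those 6 libraries alone the difference passed, at -0.18 (FDR 0.0433), and with the epithelial marker covariate it was 0.03. In CM C3 was 4.51-fold higher in CD26+ NFs (log2 2.17, SE 0.27, FDR 1.92e-06), with an overlap made by the library of line 13-MCB-138, at 273 CPM.

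Markers moved along with the cell types. The summed level of epithelial markers in CD26+ NFs was 0.216 times that in CD26- NFs in control medium and 0.275 times in CM, while the ratios were 4.11 and 2.71 for fibroblast markers and 4.03 and 4.21 for the 8 adipocyte markers, most of whose sum was Lpl, and 0.644 and 0.828 for the 10 immune markers. The ratio of the fibroblast markers differed from gene to gene, from 1.35 for Pdgfrb to 8.26 for Col3a1 in control medium. Relative to the summed fibroblast markers, and so mostly to collagen, Serping1 stood at 1.21% ± 0.142 in CD26- control and 0.804% ± 0.0409 in CD26+ control (SD, n = 3), the reverse of its order in CPM. The reversal depends on the markers used: the ratio of Serping1 in control medium, 2.74, was below that of 5 of the 9 markers and above that of the other 4, Pdgfra (1.98), Pdgfrb, Lum (1.79) and Vim (1.36). On the same scale C4b stood at 0.0180% ± 0.00370 and 0.180% ± 0.0145, C1ra at 0.0336% ± 0.00369 and 0.0520% ± 0.00272, and C3 at 0.471% ± 0.0464 and 0.103% ± 0.0168. C2 had 0.00248% ± 0.00113 and 0.00298% ± 0.000285, and in CM 0.00321% ± 0.00112 and 0.00367% ± 0.00175, with overlap of the cell types in both media. In CM Serping1 was not reversed, at 2.86% ± 0.377 in CD26- and 3.92% ± 1.16 in CD26+ NFs (SD, n = 6). C3 stood there at 1.71% ± 0.332 and 2.98% ± 1.33, C4b at 0.0224% ± 0.00840 and 0.400% ± 0.193, and C1ra at 0.0978% ± 0.0198 and 0.258% ± 0.0961. On this scale the CM libraries of the cell types overlapped for Serping1 (2.44% to 3.39% against 1.82% to 4.87%), C3 and C1ra, and not for C4b. With the mean log2 level of epithelial markers as a covariate C4b, C1ra and Serping1 were still called in both media. The part of cell composition beyond these values was not tested.

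Whether CM acted differently on the cell types was tested as the difference between the CM effects. C3 passed and the other 4 tested genes did not, where 4.53% of all genes had a larger effect in CD26+ NFs and 3.01% a smaller one. For C3 the difference was 2.34 on the log2 scale (SE 0.46, FDR 0.00669), a 5.07-fold larger rise in CD26+ NFs, and also past a difference of 2, which 0.259% of all genes passed. Without any 1 library it ranged from 2.24 to 2.53, and it stayed called in all 18 such fits, with FDR values up to 0.0326. For C1ra the difference was 0.12 (95% interval -0.47 to 0.70, FDR 0.850) and for Serping1 0.37 (95% interval -0.18 to 0.92, FDR 0.448). Those of C4b and C2 were 0.05 (95% interval -1.05 to 1.15) and -0.74 (95% interval -1.82 to 0.33), intervals too wide to say that the cell types responded alike.

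**Figure D3:**
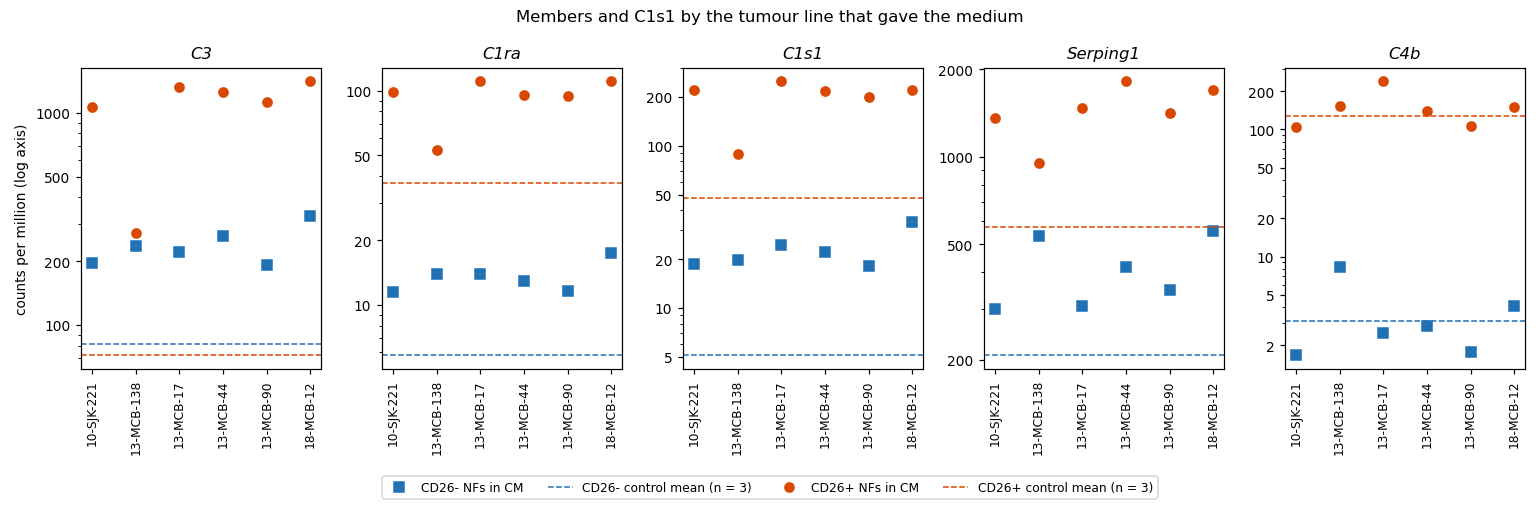
CPM on a log axis of C3, C1ra, C1s1, Serping1 and C4b in the 6 CM libraries of each cell type, placed by the tumour line that gave the medium; squares are CD26- and circles CD26+ NFs, and dashed lines are control means (n = 3). The CD26+ library of line 13-MCB-138 was lowest for C3, C1ra, C1s1 and Serping1, and the CD26- library of that line was not.

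Each line was used once per cell type, so a line's value has no replicate. In CD26+ NFs, medium of line 13-MCB-138 gave C3 at 22.0% of the mean of the other 5 lines, Cfb at 11.2%, C1ra at 51.8% and Serping1 at 61.1%, each the lowest of the 6. C1s1, not a member, was at 40.0%. C4b, not called for CM, was at 104%. In CD26- NFs the same medium gave C3 at 98.1%, C1ra at 103% and Serping1 at 139% of the other lines. Line 18-MCB-12 gave the highest C3 in both cell types, at 328 CPM and 1409 CPM, and the highest C1ra and Serping1 in CD26- NFs. The CD26+ library of line 13-MCB-138 also stood apart over all genes: its counts differed from those of the other CD26+ CM libraries with a chi-square per degree of freedom of 21.04 to 56.5, where pairs of the others gave 4.48 to 26.8. Without the 13-MCB-138 library the CM effects in CD26+ NFs were 4.09 for C3 (FDR 1.14e-10), 1.45 for C1ra (FDR 1.06e-07) and 1.44 for Serping1 (FDR 1.30e-05) on the log2 scale. The labels give no batch by which the library could be set apart, and whether the line or the library is low cannot be told apart.

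Over the 6 lines, the order of levels in CD26- NFs was compared with that in CD26+ NFs for the 5 tested genes. Pearson's r of log2 CPM was 0.134 for C3, 0.355 for C4b, -0.383 for C2, 0.105 for C1ra and -0.147 for Serping1, and Spearman's rho was 0.486, 0.657, -0.371, 0.429 and 0.257. None passed an exact two-sided permutation test over pairings (the lowest p was 0.469 for r and 0.175 for rho, and adjusted values over the 5 relations were 0.867 and 0.622 or more). Without the 2 lines farthest from the CD26- median, r was -0.108 for C3, 0.282 for C4b, -0.637 for C2, -0.277 for C1ra and 0.889 for Serping1. With 6 lines these data do not show a shared order.

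The other genes of the system were counted from a list of 48 further complement genes in the table, of which 19 were tested. CM raised 4 of them in CD26- NFs and 5 in CD26+ NFs and lowered 0 in either (unadjusted p under 0.05 in 7 and 7, DESeq2 calls 5 and 6), with a median log2 fold change of 0.22 and 0.15. The shares of all tested genes raised and lowered were 7.88% and 7.28% in CD26- NFs, against 15.2% and 13.4% in CD26+ NFs. CD26+ NFs had more of 8 and less of 6 of these transcripts in control medium (all genes 25.0% and 25.4%). In CM they had more of 7 and less of 7 (all genes 29.3% and 29.3%). These counts include C4a and Csmd1 in both media and C8g in control medium, whose filter was passed through the CD26+ libraries, where they are higher. C3ar1, called as lower in both media, passed it through the CD26- libraries. The calls of these genes between the cell types are a description. For the difference in CM effect 0 were called (1 at an unadjusted p under 0.05, 0 by DESeq2), where 4.53% of all genes had a larger and 3.01% a smaller effect in CD26+ NFs.

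By the rule for naming genes, these were C1s1, C1s2 and C1qbp. C1s1 and C1s2 encode C1s, the protease that C1r activates and that cuts C4 and C2. C1s1 had 4.94 to 5.32 CPM in CD26- control and 18.1 to 33.7 CPM in CD26- CM, a log2 rise of 2.16 (SE 0.32, FDR 4.55e-04). In CD26+ NFs it had 40.7 to 55.4 CPM in control and 88.7 to 250 CPM in CM, a rise of 2.06 (SE 0.26, FDR 1.72e-05). C1s2, its copy, rose by 1.88 (SE 0.39, FDR 0.00442) and 2.13 (SE 0.26, FDR 1.33e-05). Of the 65-base windows of C1s1, 18.0% also occur in C1s2. Both were higher in CD26+ NFs in control medium, by 3.22 and 2.83, and in CM, by 3.13 and 3.08 on the log2 scale. The genes of both proteases of the C1 complex and of their inhibitor thus rose together in both cell types, while C1qa, C1qb and C1qc, which encode the recognition part C1q, had at most 20 reads each over the 18 libraries. C1qbp, whose product binds the globular heads of C1q and is mostly mitochondrial, rose by 0.30 in CD26- NFs (SE 0.09, FDR 0.0265), a call kept in 12 of the 18 fits that leave out 1 library (FDR up to 0.0996).

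Chosen after their values were seen, Clu, Cd55 and Cd59a differed between the cell types. Clu encodes clusterin, which hinders the terminal pore, and had log2 differences of -1.97 in control medium and -1.44 in CM, at 1059 to 1338 CPM in CD26- control and 221 to 436 CPM in CD26+ control (FDR 1.69e-04 in control medium). The membrane-bound regulators Cd55, which speeds the decay of the C3-cleaving enzymes, and Cd59a, which blocks the pore, had log2 differences of -1.90 and -1.13 in control medium and -1.21 and -1.56 in CM (FDR at most 0.00581). Clu and Cd55 are also expressed by epithelial cells, and their direction is that of the epithelial marker sum, whose part was not tested. None of the 3 was called for CM in either cell type.

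**Figure D4:**
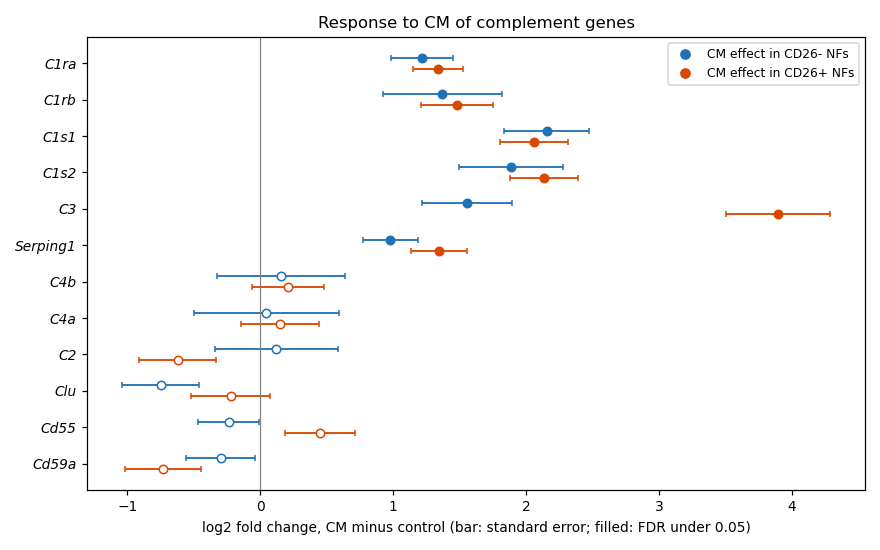
Log2 fold changes of CM against control in each cell type, with standard errors, for the 5 tested members and 7 further complement genes chosen after their values were seen; filled points passed an FDR under 0.05. C1ra, C1rb, C1s1, C1s2, C3 and Serping1 were called in both cell types, with C3 the only 1 of them whose effects differ in the test of the difference. The call of C1rb in CD26- NFs was kept in 4 of 18 fits that leave out 1 library.

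Cytokines and transcription factors known to act on complement gene transcription formed a list of 19, of which 14 were tested. CM raised 5 and lowered 3 of them in each cell type, beside 7.88% and 7.28% of all genes in CD26- and 15.2% and 13.4% in CD26+ NFs. In CD26+ against CD26- NFs, 5 were higher and 7 lower in control medium (all genes 25.0% and 25.4%). In CM 8 were higher and 4 lower (all genes 29.3% and 29.3%). Tnf, among the lower ones in both media, passed the filter on low counts through the CD26- libraries, where it is higher. Its calls between the cell types are a description. The difference in CM effect was positive for 3 (Nfkb1, Nfkb2 and Relb) and negative for 2 (Cebpa and Cebpd), beside 4.53% and 3.01% of all genes. Nfkb1, Nfkb2 and Relb encode subunits of NF-kB, for which C3 is a known target. Rela, which encodes a further subunit, was not called for CM in CD26- NFs (-0.075, FDR 0.500) or CD26+ NFs (0.161, FDR 0.0926). Its difference in CM effect, 0.235, did not pass either (FDR 0.138). Nfkb1 ran from 115 to 120 CPM in CD26+ control and 219 to 274 CPM in CM, a log2 rise of 1.05 (SE 0.07, FDR 3.44e-08), against 0.20 in CD26- NFs (SE 0.07, FDR 0.0494). The call in CD26- NFs was kept in 6 of the 18 fits that leave out 1 library, with FDR values up to 0.175. Relb rose by 1.18 (SE 0.11, FDR 1.25e-06) and Nfkb2 by 0.68 (SE 0.07, FDR 4.74e-06) in CD26+ NFs, and in CD26- NFs their differences of 0.28 and 0.16 did not pass (FDR 0.0862 and 0.146). The differences between the CM effects were 0.86, 0.89 and 0.52 for Nfkb1, Relb and Nfkb2 (FDR 4.59e-04, 0.00402 and 0.00643).

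Il6 and Il1a encode cytokines that can induce complement genes. Il6 rose by 1.60 in CD26- NFs (SE 0.32, FDR 0.00320) and 2.99 in CD26+ NFs (SE 0.35, FDR 9.17e-06), and the difference of 1.39 did not pass (FDR 0.0610). Il1a rose by 2.23 (FDR 7.22e-04) and 3.70 (FDR 2.10e-04), and was lower in CD26+ NFs in either medium. Among the C/EBP factors, Cebpd rose in CD26- NFs by 1.51 (SE 0.22, FDR 3.62e-04) and not in CD26+ NFs, where the difference was 0.17 (FDR 0.488). Cebpd and Cebpa were higher in CD26+ control than in CD26- control, by 2.61 and 2.62 (FDR 1.22e-07 and 4.25e-08), and their CM effects differed by -1.34 and -0.92 (FDR 0.00850 and 0.0330). Cebpb rose by 0.39 in CD26- NFs (FDR 0.0265). Stat3 fell by 0.17 and 0.26 on the log2 scale in CD26- and CD26+ NFs, and Irf1 fell by 0.54 in CD26- NFs on the same scale, so the transcripts of the factors did not move one way. Without 1 library in turn, the CD26- calls of Stat3, Cebpb and Irf1 were kept in 12, 16 and 16 of 18 fits (FDR up to 0.130, 0.151 and 0.0897), and the difference of Cebpa in 12 (FDR up to 0.102). No link between these factors and the members was tested.

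Likeness across the 18 libraries was described with Pearson's r of log2 CPM, over points that share groups and depth, and without a test. Among the members, C1ra and Serping1 were most alike (r = 0.969), followed by C4b and C1ra (r = 0.901) and C4b and C2 (r = 0.879), while C3 and C2 (r = 0.231) and C3 and C4b (r = 0.428) were least alike. The tested genes most like C3 were Birc3 (r = 0.978), Gng12 (r = 0.976) and Sod2 (r = 0.973). Those most like C4b were Ggt5, Lbp and Wipi1 (r = 0.992, 0.990 and 0.990), those most like C2 Podxl2, Mgat1 and Ppib (r = 0.940, 0.930 and 0.929), those most like C1ra C1rb, Colec12 and Clmp (r = 0.988, 0.988 and 0.987), and those most like Serping1 Ptx3, Cst3 and Dram1 (r = 0.985, 0.984 and 0.981).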

How the data were processed

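Per the labels, stranded mRNA libraries were sequenced single-end with 65 cycles. The authors deposited raw counts of reads per Ensembl gene, without normalization, in 1 table of 18 libraries. The submitters' processing notes name HISAT2 2.1.0, HTSeq and GRCm38, and the count setting for strand or ambiguous reads is not given in the sources used here. No library was left out, and 1 row without a gene held 0 counts. Replicates of a group differed beyond counting error in every pair (chi-square over its degrees of freedom at least 3.1), so no library was a copy of another.

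Groups came from the labels. Counts were filtered with filterByExpr (14273 genes, at least 99.9% of each library's counts), scaled by TMM and tested in R 4.3.3 with edgeR 4.0.16 (glmQLFit, glmQLFTest) in 1 model with a term per group, with Benjamini-Hochberg adjustment over all tested genes. The biological coefficient of variation common to all genes was 0.117. The study used DESeq2, run here (1.42.0) as an alternative. On simulated counts for the CM effect in CD26- NFs (14273 genes, 100 changed per size), 100% of the changes of log2 size 1 and 100% of those of size 2 were recovered, and 6.54% of the genes called were unchanged ones, just over the FDR threshold of 0.05. Permutation tests used scipy 1.17.1. Intervals of log2 differences are normal intervals from the SE, and those of ratios of reads cover counting error only.

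The members and the gene lists were chosen with earlier results of these data known. Other complement genes and inducers were named where they passed the FDR in a CM effect or in the difference between them with a group mean of 10 CPM or more, at most 12 per list, and other named genes were chosen after their values were seen. Some listed genes are counted but not reported here by name. For likeness, the 3 tested genes with the highest r and a group mean of 5 CPM or more were named. Libraries of the 2 cell types given medium of the same line deviated together (6 pairs, each with an r between 0.247 and 0.406, by the line in the labels), so the line served as a replicate block in an alternative. Others were RLE and upper-quartile scaling, no filter, the 2 groups alone, the study's log2 limits and leaving out each library, and, added after seeing the data, summed copies, an epithelial marker covariate and leaving out line 13-MCB-138. Read-length windows and exon overlaps came from GENCODE M21, promoter sequences from RefSeq (GRCm38.p6).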

Additional observations from a re-analysis of the deposited data

Results flagged for a closer look

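In 4 of 13 groups of 6 libraries that were checked, 1 library stood far from the others, where chance marks about 1 in 20 groups. C3 in CD26+ CM was 272.7 CPM in the library of line 13-MCB-138, against 1066 to 1409 CPM in the other 5. C1ra was at 52.72 CPM in the same library, against 94.5 to 111 CPM. C4b was at 8.224 CPM in the CD26- CM library of line 13-MCB-138, above the others, and at 238.9 CPM in the CD26+ CM library of line 13-MCB-17. The CM effect on C3 differed between the cell types by 2.34 on the log2 scale (edgeR FDR 0.00669).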

How the results depend on the processing

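Of 653 alternative values for the effects on the 5 tested members, 638 kept their direction and their side of the threshold. With the study's log2 limit of 2 the number of members called was 0 in place of 3 for CM in CD26- NFs and 1 in place of 3 in CD26+ NFs. Between the cell types, leaving C2 aside, C4b and C1ra stayed in place of 3 genes in control medium. In CM C4b, C1ra and C3 stayed in place of 4. The limit removes smaller changes by construction. The sign changed for effects that were not called: C4b for CM in CD26- NFs (-0.253 to 0.31 when libraries were left out in turn, and -0.252 without line 13-MCB-138), C2 in the same comparison (-0.272 to 0.385; -0.272 without replicate 3 and -0.024 without replicate 6), C3 between the cell types in control medium (0.031 with the epithelial marker covariate), and the differences in CM effect of C4b (-0.148 to 0.462; below 0 in 7 of 18 fits, at -0.083, -0.025, -0.1, -0.082, -0.023, -0.017 and -0.148) and C1ra (-0.036 to 0.235). In a fit of the 2 control groups alone C3 passed the threshold (-0.176, FDR 0.0433), and C2 between the cell types in CM was not called with the epithelial covariate (1.77, FDR 0.0571). The cause was not tested. The correlations over lines turned sign without the 2 farthest lines for C3 (-0.108), C1ra (-0.277) and Serping1 (0.889), on 4 lines each. The replicate block by line, fitted for the difference in CM effect and between the cell types in CM, changed no call of the 5 members there, with C3 at 2.23 (FDR 0.00272) for the difference in CM effect and at 2.06 between the cell types in CM. Depth limits Cfb, Cfd and C2: 3 reads equal 0.203 to 0.290 CPM.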
